A study of Homo sapiens with 42 samples.

Results

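The mitochondrially encoded mRNAs described here are MT-CO1, MT-CO2, MT-CO3, MT-ATP6, MT-CYB, MT-ND1, MT-ND2, MT-ND4, MT-ND5 and MT-ND6. They are 10 of the 13 protein-coding genes that GENCODE 29 annotates on the mitochondrial chromosome, and 10 of the 42145 genes counted in the series. They were chosen by name, and each was read from the single transcript entry that carries its GENCODE identifier in all 3 deposited tables. MT-ATP8, MT-ND3 and MT-ND4L were not analysed here. The libraries come from MDA-MB-231, a human breast cancer cell line, and hold 3′-end sequencing tags made with QuantSeq REV, a kit that primes on poly(A) tails. The first table holds nuclear and cytoplasmic RNA of LM2 cells, labelled highly metastatic to the lung, and of Par cells, labelled poorly metastatic. The second holds the same fractions of poorly metastatic cells with HNRNPC knockdown (gHNRNPC) or a control (gCTRL), and the third holds total RNA of LM2 cells that had received 3 µM of a compound named T4, or the same volume of its solvent DMSO, for 6 h and were harvested at 6, 24 or 72 h. There were 14 such groups, each of 3 libraries (42 in all). Whether the 3 came from different cultures is not stated, so a p-value reflects only how far these libraries vary, which can be technical variation.

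Human mitochondrial DNA encodes core subunits of the respiratory chain and of ATP synthase. Both of its strands are transcribed as long precursors from which tRNAs are cut, and the cuts release the mRNAs and rRNAs that lie between them. MTPAP, a poly(A) polymerase of the organelle, then adds short tails to most of these mRNAs, and for several of them the tail supplies the last bases of the stop codon. MT-ND6 is the protein-coding gene whose mRNA is read from the other strand, and in human cells it is known for having little or no poly(A) tail.

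The last 30 bases of each annotated transcript are shown because the tags are made at RNA ends and because what follows the annotated end differs between the genes. The sequences are those of the GENCODE 29 transcripts, written 5′ to 3′, and capitals mark the final codon or, where the reading frame is incomplete, the bases left after the last whole codon.
MT-ND1: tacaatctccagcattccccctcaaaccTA
MT-ND2: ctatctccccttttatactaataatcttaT
MT-CO3: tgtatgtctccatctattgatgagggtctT
MT-ND4: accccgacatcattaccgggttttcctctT
MT-CYB: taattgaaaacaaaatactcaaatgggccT
MT-ATP6: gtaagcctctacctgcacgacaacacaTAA
MT-CO1: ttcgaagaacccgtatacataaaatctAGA
MT-CO2: tttgaaatagggcccgtatttaccctaTAG
MT-ND5: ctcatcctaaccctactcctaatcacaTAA
MT-ND6: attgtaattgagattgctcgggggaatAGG

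The first 5 of these end in T or TA, an incomplete stop codon, and the other 5 end in a complete codon. In GRCh38 coordinates of chromosome M, MT-ND1 spans 3307 to 4262, MT-ND2 4470 to 5511, MT-CO3 9207 to 9990, MT-ND4 10760 to 12137 and MT-CYB 14747 to 15887, all on the plus strand. Each of these 5 is followed without a gap by a tRNA gene. MT-ATP6 (8527 to 9207) overlaps the start of MT-CO3 by 1 base. MT-CO1 (5904 to 7445) is followed by a gap of 72 bases to the next gene on its strand, MT-CO2 (7586 to 8269) by 25 bases and MT-ND5 (12337 to 14148) by 598 bases. MT-ND6 (14149 to 14673, minus strand) is followed by 6634 bases on its own strand, and it lies within the gap after MT-ND5. Every annotated span is a single exon that holds coding sequence, with no UTR.

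Depth was 0.798 to 2.305 M counts per library, and all 10 mRNAs passed the filter on low counts in all 3 tables, beside 8542, 9351 and 8035 tested genes in the LM2 and Par, knockdown and T4 tables. HNRNPC, the knockdown target and a nuclear RNA-binding protein, had 99.1 ± 12.96 CPM (counts scaled to library size with TMM factors; SD, n = 3) in gHNRNPC cytoplasm and 508 ± 31.8 CPM in gCTRL cytoplasm, a log2 change of −2.36 ± 0.19 (standard error; edgeR, adjusted p = 3.5e-09). Nuclei gave −2.44 ± 0.20 (edgeR, adjusted p = 2.6e-09). Of the markers of this cell line, VIM, CAV1 and AXL had 42.8 to 1576, 158 to 1460 and 130.3 to 1592 CPM over the 42 libraries, but S100A4 and EGFR were as low as 6.75 and 16.7 CPM. Of the markers of other cells, EPCAM stayed at or under 20.2 and CDH1 at or under 1.67 CPM, and PGR, KRT5, CD3E and DCN had no count, while CD68 reached 124.5 CPM and COL1A1 60.7 CPM. GAPDH, a gene used by every cell, was itself at only 2.51 ± 2.61 CPM in gHNRNPC cytoplasm, so a marker near 0 does not show that it is absent. Some libraries stood apart: the LM2 and Par nuclear libraries numbered 2 had TMM factors of 0.721 and 0.731 against 1.093 to 1.218 in the other 4, and T4 library 3 at 6 h had 0.502.

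MT-CO3, a core subunit of cytochrome c oxidase, held the largest share of the member counts, with a lowest, median and highest percent of 31.3, 42.4 and 66.0 over the 42 libraries. MT-ATP6, a subunit of the proton channel of ATP synthase, held 19.4, 28.8 and 40.5% on the same count. MT-ND4, MT-ND2 and MT-ND1, membrane subunits of complex I, had medians of 10.6, 6.49 and 5.37%, and MT-CYB, the cytochrome b of complex III, had 3.86%. The remaining 4 were far lower. MT-ND6 had a median of 0.428%, MT-CO2 0.305%, MT-CO1 0.217% and MT-ND5 0.153% of the member counts. Per kilobase of annotated length the order of the medians was the same, with 54.1% per kilobase for MT-CO3 at the top and 0.0846% per kilobase for MT-ND5 at the bottom.

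The 6 mRNAs whose annotated end adjoins or overlaps the next gene together held 95.6, 98.6 and 99.4% of the member counts (lowest, median and highest library), and the 4 with a gap held 0.625, 1.37 and 4.39%. This division by annotated ends was made with the levels already known, and it carries no test. MT-CO1, MT-CO2 and MT-ND5 are known to have mRNAs that run on beyond the stop codon, a stretch the GENCODE transcripts do not include, and whether tags from those stretches were counted was not tested. The raw counts behind the low members were correspondingly small: 2 to 236 for MT-CO1, 2 to 609.6 for MT-CO2, 4 to 570 for MT-ND5 and 4 to 305.3 for MT-ND6 in the knockdown table. Values of MT-ND6 were not whole numbers in 11 of 12, 11 of 12 and 18 of 18 libraries of the 3 tables, which marks reads divided among similar entries. MT-ATP6 was not whole in 5, 6 and 8 libraries and MT-CO2 in 1 library of each table, and the other 7 were whole throughout. The levels of MT-ND6 and MT-ATP6 are therefore uncertain, since the counting may split reads with near-identical nuclear copies. MT-ND6 has further limits, since the kit primes on poly(A) tails and this mRNA has little or no tail. It also lies within the gap after MT-ND5, and whether counting used strand is not given. Whether its tags follow the amount of its mRNA was not tested, here or in the comparisons below.

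**Figure D1:**
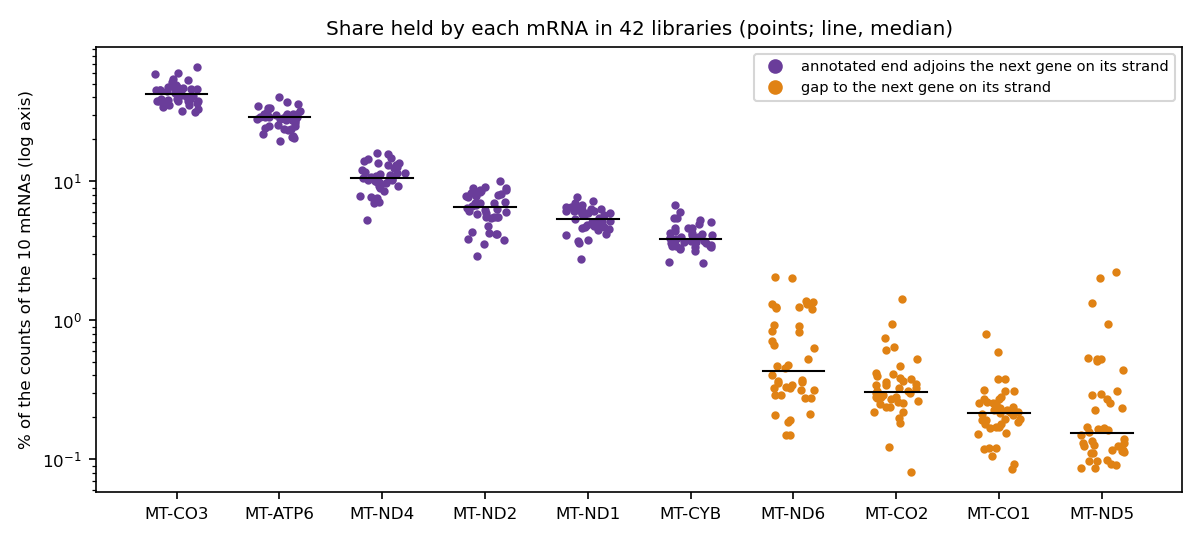
Percent of the counts of the 10 mRNAs held by each mRNA (log axis) in the 42 libraries, with points for libraries and a line for the median; purple marks an annotated end that adjoins or overlaps the next gene on the strand, orange a gap. The medians of the 6 purple genes lie between 3.86 and 42.4%, those of the 4 orange genes between 0.153 and 0.428%.

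The 10 mRNAs together took a far larger share of nuclear than of cytoplasmic libraries. LM2 nuclei had 2.90, 1.69 and 2.81% of all gene counts in these mRNAs, and LM2 cytoplasm had 0.378, 0.318 and 0.314%. Par nuclei had 3.25, 1.80 and 2.89%, and Par cytoplasm 0.195, 0.256 and 0.309%. In both kinds of cell the nuclear library numbered 2 was the lowest of its group, and no nuclear library came near a cytoplasmic one. The difference was wider in the knockdown table, where gHNRNPC nuclei had 9.15, 7.69 and 8.90% and their cytoplasm had 0.225, 0.206 and 0.105%. The gCTRL nuclei had 6.01, 7.21 and 7.72% and gCTRL cytoplasm 0.0398, 0.116 and 0.114%, with library 1 of that cytoplasm the lowest of all 42. The group means of total RNA lay between those of the fractions, though 2 libraries of 72 h, at 1.73% each, were above LM2 nuclear library 2. With T4 and DMSO the mean shares were 1.03 ± 0.134% and 1.06 ± 0.0664% at 6 h, 1.26 ± 0.0809% and 1.42 ± 0.0935% at 24 h, and 1.46 ± 0.270% and 1.43 ± 0.297% at 72 h (SD, n = 3 each). In such bulk samples fewer organelles and less of these mRNAs in each cannot be told apart, nor can fewer cells and less RNA in each cell. Levels in different tables were scaled separately, and no test was made across them.

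**Figure D2:**
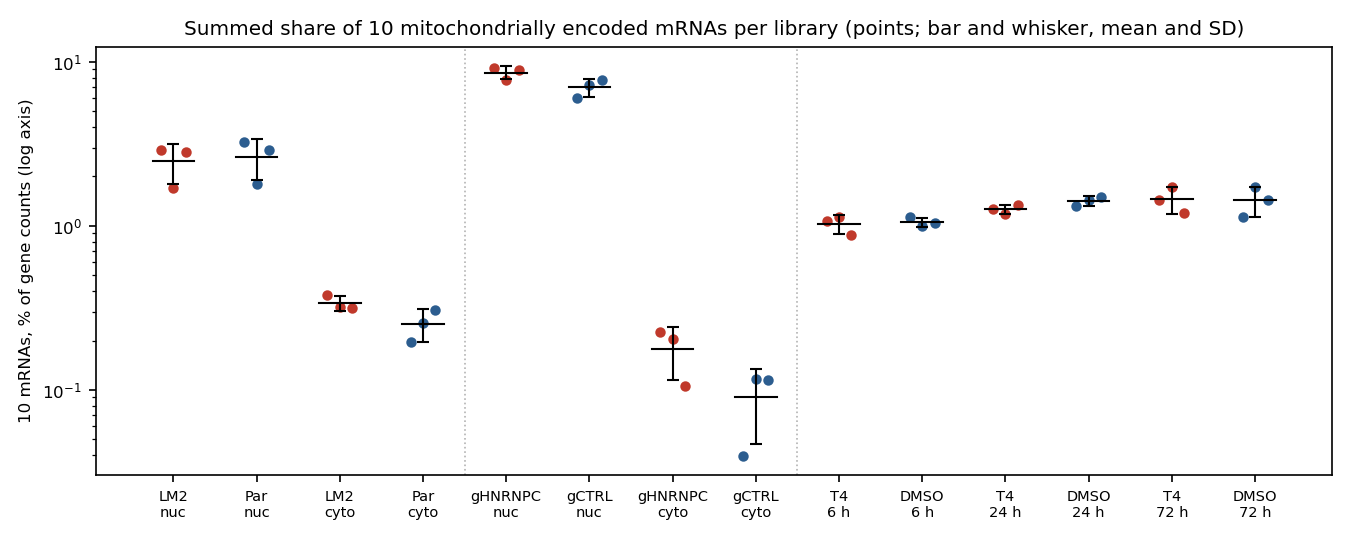
Summed counts of the 10 mRNAs as a percent of all gene counts (log axis) in each library; points are libraries, and the bar and whisker are the mean and SD of 3. Dotted lines part the 3 deposited tables; nuclear libraries lie between 1.69 and 9.15%, cytoplasmic ones between 0.0398 and 0.378%.

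Relative to the other RNA of each library, every one of the 10 mRNAs was higher in the nuclear than in the cytoplasmic fraction. This held in LM2, Par, gHNRNPC and gCTRL cells (edgeR, adjusted p under 0.05). Such relative levels do not give copies per cell in either fraction, and scaling is less certain where many genes differ. Nucleus and nuclei stand for the fraction labelled nuclear throughout, and whether it held mitochondria was not tested. In these 4 comparisons 52.1, 45.2, 54.4 and 61.5% of all genes tested were called in either direction, and 28.8, 23.5, 31.3 and 33.9% were called higher. The ratio of mean shares, nucleus over cytoplasm, was 7.33 in LM2, 10.4 in Par, 48.0 in gHNRNPC and 77.3 in gCTRL cells. Setting the lowest nuclear library against the highest cytoplasmic one still gave 4.47, 5.83, 34.2 and 51.6. The median log2 difference of the 10 was 2.73 in LM2, 3.28 in Par, 5.23 in gHNRNPC and 5.70 in gCTRL cells, against medians of 0.22, 0.07, 0.03 and 0.06 over all genes tested.

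MT-ND5, the large antiporter-like subunit at the end of the complex I membrane arm, had the smallest nuclear excess in all 4 kinds of cell. Its level was 27.1, 21.4 and 29.02 CPM in LM2 nuclei and 9.52, 9.81 and 7.36 CPM in LM2 cytoplasm, a log2 difference of 1.54 ± 0.31 (edgeR, adjusted p = 0.0011). In Par cells it was 27.0, 27.4 and 32.0 CPM in nuclei and 10.3, 7.13 and 15.3 CPM in cytoplasm (1.41 ± 0.29, adjusted p = 0.0019 by edgeR). The groups did not overlap, and the log2 difference was 3.16 ± 0.47 in gHNRNPC and 3.76 ± 0.58 in gCTRL cells (edgeR, adjusted p = 0.00012 in each). MT-ND6 had the largest excess in LM2 and Par cells, 4.19 ± 0.38 and 3.81 ± 0.38 on the log2 scale (edgeR, adjusted p = 2.2e-06 and 5.8e-06). In the knockdown table MT-CO3 and MT-CYB were at the top. MT-CO3 was higher in the nuclear fraction by 6.02 ± 0.39 in gHNRNPC and 6.48 ± 0.40 in gCTRL cells. MT-CYB was higher there by 5.94 ± 0.27 and 6.48 ± 0.28 (all log2, edgeR). The order of the members by nuclear excess thus differed between the tables, and no test of the order was made.

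**Figure D3:**
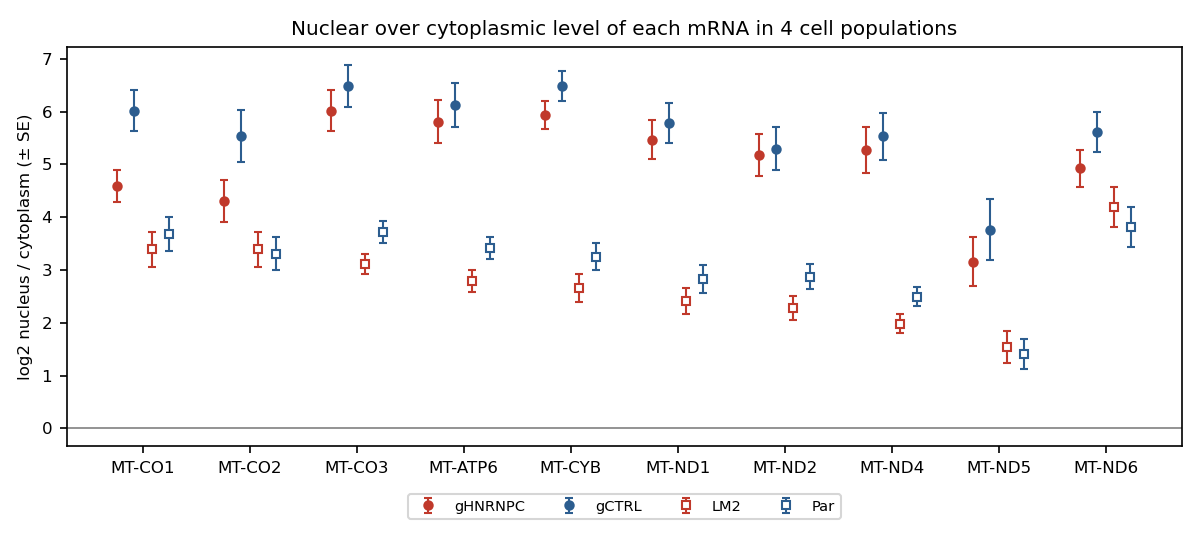
Log2 ratio of nucleus to cytoplasm (± SE, edgeR) of each mRNA in gHNRNPC and gCTRL cells (filled circles) and in LM2 and Par cells (open squares). All 40 values lie above 0, and MT-ND5 is the lowest of the 10 in each kind of cell.

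RNAs that check the fractions differed among themselves, and their part in the nuclear excess of the mRNAs was not tested. MALAT1, a nuclear-retained RNA, was higher in the nucleus by a log2 of 1.51 ± 0.44 in LM2, 2.34 ± 0.43 in Par, 3.20 ± 0.35 in gHNRNPC and 3.26 ± 0.36 in gCTRL cells. TPT1, a cytoplasmic mRNA, differed by −1.96 ± 0.17, −1.74 ± 0.17, −1.64 ± 0.19 and −2.47 ± 0.20 in the same order, each past the threshold by edgeR, and ACTB and RPLP0 were also lower in the nucleus in all 4. TUG1, the other nuclear-retained RNA tested, did not pass the test in LM2 (−0.35 ± 0.19) or Par cells (−0.18 ± 0.19), and was higher in the nucleus of gHNRNPC (0.55 ± 0.21) and gCTRL cells (0.48 ± 0.21, adjusted p = 0.028 and 0.046 by edgeR). RPS3, a cytoplasmic mRNA, gave −0.04 ± 0.60 in LM2 and 0.06 ± 0.52 in Par cells, and was lower in the nucleus of gHNRNPC (−2.01 ± 0.60) and gCTRL cells (−1.91 ± 0.64, adjusted p = 0.0062 and 0.012 by edgeR). In LM2 cells, as in Par cells, 1 of 2 nuclear-retained RNAs and 3 of 4 cytoplasmic mRNAs thus passed the test in the direction of their list. The excess of most of the 10 mRNAs was thus larger than that of MALAT1. The mitochondrial rRNAs MT-RNR1 and MT-RNR2 had an excess of the same size, 3.47 ± 0.23 and 3.14 ± 0.19 in LM2, 4.21 ± 0.24 and 3.47 ± 0.19 in Par, 6.07 ± 0.30 and 5.34 ± 0.40 in gHNRNPC, and 6.08 ± 0.30 and 5.17 ± 0.39 in gCTRL cells. All 7 tested nuclear copies of mitochondrial genes, which are pseudogenes and short genes of the chromosomes that share sequence with mitochondrial DNA, were also higher in the nucleus in every comparison, by 2.05 to 6.14 on the log2 scale. The nuclear copies can take reads from the mitochondrial genes or lend reads to them.

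The summed share of the 10 mRNAs was 0.336 ± 0.0356% in LM2 and 0.253 ± 0.0568% in Par cytoplasm, a ratio of 1.33 (1.39 in summed CPM), with no overlap on either scale. The gap was narrow, with the lowest LM2 library at 0.314% and the highest Par library at 0.309%. In nuclei the summed share overlapped, at 2.47 ± 0.675% in LM2 and 2.65 ± 0.753% in Par. Among single mRNAs of the cytoplasm 1 of 10, MT-ATP6, was called, and it was higher in LM2, where 11.7% of all genes were called and 4.16% were called higher (edgeR). MT-ATP6 had 897, 792 and 815 CPM in LM2 cytoplasm and 414, 489 and 709 CPM in Par cytoplasm. The groups did not overlap, and the log2 change was 0.64 ± 0.19 (edgeR, adjusted p = 0.046), but leaving out a library ended the call in 5 of 6 cases. MT-ND2 was as far apart, with 240.5, 210.2 and 225 CPM in LM2 and 114, 152 and 166 CPM in Par cytoplasm (0.65 ± 0.22), and it missed the threshold (edgeR, adjusted p = 0.082). MT-CO3 gave 0.48 ± 0.18 (edgeR, adjusted p = 0.099), and 8 of the 10 had positive values, with a median of 0.34 against −0.02 over all genes. MT-CO2 and MT-ND5 were the exceptions at −0.29 ± 0.33 and −0.28 ± 0.31. Over the 10 mRNAs, 4 did not overlap between LM2 and Par cytoplasm, MT-CO3, MT-ATP6, MT-ND2 and MT-ND6, beside 42.9% of all genes. The 12S rRNA MT-RNR1 was called higher in LM2 cytoplasm (1.25 ± 0.21, adjusted p = 0.0038 by edgeR), with 677 ± 97.8 CPM in LM2 and 285 ± 57.6 CPM in Par, while the 16S rRNA MT-RNR2 was at 644 ± 80.9 and 613 ± 167 CPM (0.07 ± 0.17).

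In LM2 nuclei none of the 10 was called against Par nuclei, where 2.53% of all genes were called, and 1 of them, MT-ND6, had an unadjusted p under 0.05 by edgeR. MT-ND6, a complex I subunit, had 114, 305 and 237 CPM in LM2 nuclei and 76.1, 110.8 and 103 CPM in Par nuclei. The lowest LM2 library was just above the highest Par library, and the log2 change was 1.18 ± 0.33 (edgeR, adjusted p = 0.088). Without LM2 nuclear library 1 it passed the threshold, at a log2 change of 1.48. It also stood out within the member counts, of which it held 0.900 ± 0.410% in LM2 and 0.378 ± 0.0905% in Par nuclei. The nuclear copy MTND6P4, which shares sequence with MT-ND6, was at 58.0 ± 15.2 CPM in LM2 and 35.2 ± 14.0 CPM in Par nuclei (0.73 ± 0.45), and in the cytoplasm at 5.52 ± 2.95 and 0.815 ± 0.979 CPM (2.65 ± 0.73, adjusted p = 0.034 by edgeR). The other 9 lay between −0.28 and 0.06 in the nucleus, and MT-ND6 was the 1 mRNA that did not overlap, beside 16.6% of all genes. The test of a different LM2 effect in nucleus and cytoplasm called none of the 10 and 0% of all genes by edgeR, with 2 of the 10 at an unadjusted p under 0.05, MT-CO3 (−0.61 ± 0.25) and MT-ATP6 (−0.61 ± 0.27), and DESeq2 called none of the 10.

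After HNRNPC knockdown, 6 of the 10 mRNAs were called in the cytoplasm, each of them higher, where 23.3% of all genes were called and 11.6% were called higher (edgeR). They were MT-CO1, MT-CO2, MT-CYB, MT-ND1, MT-ND2 and MT-ND5. All 10 had positive values, with a median log2 change of 0.97 against 0.01 over all genes. In the nucleus 14.3% of all genes were called and 8.45% were called higher. MT-CO2 and MT-ND5 were called higher there, again all 10 had positive values, and the median was 0.45 against 0.04. The summed share overlapped in both fractions. It was 0.179 ± 0.0643% in gHNRNPC and 0.0902 ± 0.0436% in gCTRL cytoplasm, and 8.58 ± 0.777% and 6.98 ± 0.876% in nuclei (SD, n = 3 each). Summed CPM overlapped in cytoplasm and did not overlap in nuclei.

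MT-CO2, which carries the copper site that takes electrons from cytochrome c, had 31.2, 14.2 and 9.35 CPM in gHNRNPC cytoplasm and 2.16, 8.04 and 0.941 CPM in gCTRL cytoplasm. All gHNRNPC libraries were above all gCTRL libraries, and the log2 change was 2.28 ± 0.57 (edgeR, adjusted p = 0.0083). In nuclei it had 321, 289 and 458 CPM with gHNRNPC and 182, 192 and 139 CPM with gCTRL, again without overlap (1.06 ± 0.33, adjusted p = 0.044 by edgeR). MT-ND5 had 49.0, 38.0 and 13.2 CPM in gHNRNPC cytoplasm and 2.16, 11.8 and 6.11 CPM in gCTRL cytoplasm, which did not overlap (2.29 ± 0.61, adjusted p = 0.018 by edgeR). Its nuclear values were 269.6, 185 and 428 CPM with gHNRNPC and 79.9, 116 and 77.9 CPM with gCTRL, likewise apart (1.69 ± 0.44, adjusted p = 0.025 by edgeR). Each nuclear call ended when a library was left out, for MT-CO2 in 6 of 6 cases and for MT-ND5 in 5 of 6, with changes of 0.83 to 1.15 and 1.32 to 1.90.

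These 2 mRNAs also took a larger part of the member counts, a measure that does not depend on how libraries are scaled. MT-ND5 held 1.85 ± 0.474% of the member counts in gHNRNPC and 0.662 ± 0.236% in gCTRL cytoplasm, and 0.321 ± 0.105% and 0.135 ± 0.0266% in the nuclei, with no overlap in either fraction. MT-CO2 held 1.04 ± 0.347% in gHNRNPC and 0.415 ± 0.295% in gCTRL cytoplasm, and 0.393 ± 0.0662% and 0.257 ± 0.0528% in the nuclei, also with no overlap. The larger part was not particular to them. MT-ND1 held 6.42 ± 1.05% and 5.14 ± 0.404% in cytoplasm, and 5.41 ± 0.587% and 3.94 ± 0.294% in nuclei, with no overlap. MT-ND2 did not overlap in nuclei, at 5.71 ± 0.322% and 3.88 ± 0.365%. MT-ND4 in cytoplasm and MT-CYB in nuclei held a smaller part with gHNRNPC, without overlap. MT-CO1, the subunit with the catalytic centre of cytochrome c oxidase, rested on few cytoplasmic counts, 11, 22 and 6 in gHNRNPC and 6, 2 and 3 in gCTRL libraries (1.72 ± 0.52, adjusted p = 0.017 by edgeR), and its CPM values overlapped, as did those of MT-ND1 and MT-ND2.

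MT-CYB was called in the cytoplasm with 70.6 ± 20.1 CPM in gHNRNPC and 41.8 ± 12.6 CPM in gCTRL (0.75 ± 0.24, adjusted p = 0.027 by edgeR), with no overlap. MT-ND1 had 111 ± 46.7 and 47.7 ± 22.2 CPM there (1.20 ± 0.34, adjusted p = 0.014), and MT-ND2 had 142 ± 60.7 and 66.2 ± 33.2 CPM (1.09 ± 0.36, adjusted p = 0.038, both by edgeR). In these genes the third gHNRNPC library and the first gCTRL library were the lowest of their groups. The number of members called in the cytoplasm was 1 without gHNRNPC library 2 and 8 without gHNRNPC library 3, and 4 to 5 without any other single library of the 2 groups. The shares of all genes called by those fits are not given here, so these counts have no background beside them. Over the omissions the changes were 0.50 to 0.92 for MT-CYB, 0.86 to 1.52 for MT-ND1 and 0.73 to 1.40 for MT-ND2. MT-ND1 and MT-ND2 did not overlap in nuclei, at 4892 ± 977 and 5152 ± 807 CPM in gHNRNPC and 2640 ± 201 and 2617 ± 430 CPM in gCTRL, but missed the threshold (0.89 ± 0.30 and 0.98 ± 0.33, adjusted p = 0.056 and 0.062 by edgeR). In all, 3 of the 10 did not overlap in cytoplasm and 6 in nuclei, beside 40.5 and 29.01% of all genes.

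MT-CO3, MT-ATP6, MT-ND4 and MT-ND6 were called in neither fraction, with cytoplasmic changes of 0.74 ± 0.32, 0.85 ± 0.34, 0.62 ± 0.38 and 0.76 ± 0.52. MT-RNR1 was at 86.1 ± 23.9 CPM in gHNRNPC and 88.9 ± 34.5 CPM in gCTRL cytoplasm (−0.05 ± 0.26), and MT-RNR2 at 313 ± 111 and 201 ± 107 CPM (0.64 ± 0.34), neither past the threshold. No mRNA of the 10 was called for a different knockdown effect in nucleus and cytoplasm (0.0214% of all genes were called by edgeR), with 1 of them, MT-CO1, at an unadjusted p under 0.05 (−1.43 ± 0.58), and DESeq2 called none. Nuclear copies that share sequence with the members were called as well. MTND2P28 was at 191 ± 30.8 CPM in gHNRNPC and 39.8 ± 1.36 CPM in gCTRL nuclei (2.26 ± 0.23, adjusted p = 8.6e-08), MTND5P11 at 78.6 ± 27.2 and 26.5 ± 6.50 CPM (1.57 ± 0.27, adjusted p = 0.00023), and MTCO3P12 at 59.2 ± 19.8 and 29.2 ± 6.84 CPM (1.02 ± 0.30, adjusted p = 0.021, all by edgeR). Whether reads pass between these copies and MT-ND2, MT-ND5 and MT-CO3 was not tested.

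**Figure D4:**
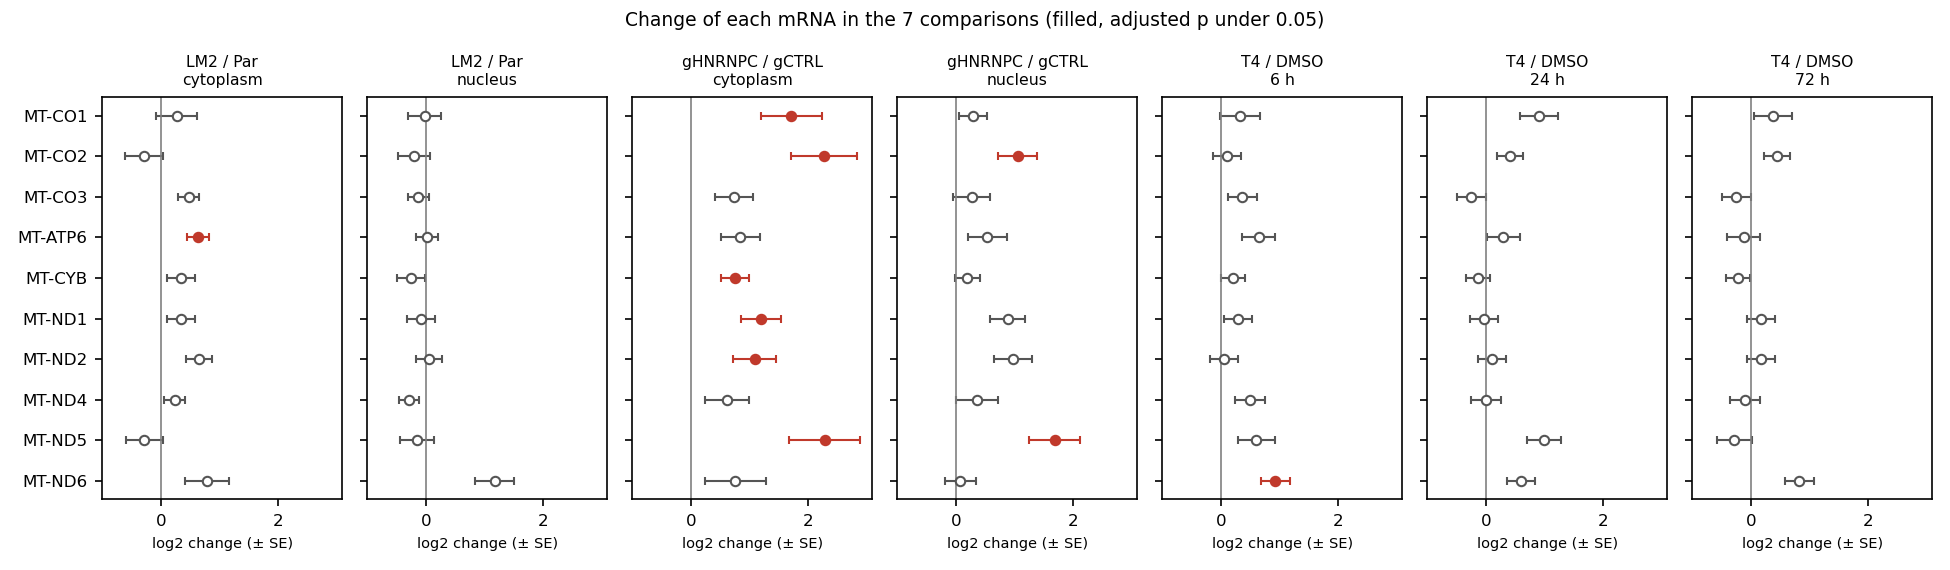
Log2 change (± SE, edgeR) of each mRNA in the 7 comparisons, written as the numerator over the denominator; red filled points passed an adjusted p of 0.05. After HNRNPC knockdown all 10 values lie above 0 in both fractions, with 6 filled in the cytoplasm and 2 in the nucleus.

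T4 moved few of these mRNAs past the threshold. At 6 h 1 of 10 was called, and it was higher, where 15.8% of all genes were called and 3.15% were called higher (edgeR). It was MT-ND6, with 154, 262 and 358 CPM with T4 and 151, 124 and 129 CPM with DMSO, a log2 change of 0.93 ± 0.25 (edgeR, adjusted p = 0.016). The lowest T4 library was close to the highest DMSO library, and the call ended without DMSO library 2 or 3, with changes of 0.63 to 1.19 over the 6 omissions. MTND6P4 was called alongside it, at 71.2 ± 26.3 CPM with T4 and 35.9 ± 9.87 CPM with DMSO (0.93 ± 0.28, adjusted p = 0.029 by edgeR).

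All 10 mRNAs had positive values at 6 h, with a median of 0.35 against −0.11 over all genes. These values depend on how the libraries are scaled. The T4 libraries had TMM factors of 0.846, 0.865 and 0.502, and their summed CPM of the 10 mRNAs was 12597, 13120 and 17467, against 11141, 9983 and 10432 with DMSO. Without T4 library 3 all 10 values were still positive, at 0.06 to 0.63. With library totals alone as the scale of every library, 7 of the 10 turned negative, the exceptions being MT-ATP6, MT-ND5 and MT-ND6, and no member was called. MT-ATP6 had 4052, 3983 and 7074 CPM with T4 and 3498, 2952 and 3195 CPM with DMSO (0.65 ± 0.28, adjusted p = 0.13 by edgeR). The share of the library did not differ by more than the spread, as given above.

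At 24 h none of the 10 was called, where 5.23% of all genes were called, and 3 had an unadjusted p under 0.05 by edgeR. These were MT-ND5, MT-CO1 and MT-ND6. MT-ND5 had 22.8, 33.8 and 20.1 CPM with T4 and 11.3, 12.2 and 14.8 CPM with DMSO (1.00 ± 0.29, adjusted p = 0.055 by edgeR), and MT-CO1 had 41.1, 27.8 and 30.5 CPM with T4 and 13.8, 17.1 and 21.6 CPM with DMSO (0.91 ± 0.32, adjusted p = 0.11 by edgeR). Neither overlapped, and both had fewer than 50 counts in every library of that time. MT-ND6 had 173, 170.5 and 161 CPM with T4 and 95.6, 128 and 107 CPM with DMSO, also apart (0.61 ± 0.24, adjusted p = 0.14 by edgeR). The fit of the 6 libraries of that time alone called all 3, but the share of all genes called by that fit is not given here.

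At 72 h none of the 10 was called, where 0.274% of all genes were called, and MT-ND6 was again the member with an unadjusted p under 0.05. It had 91.9, 80.3 and 68.9 CPM with T4 and 36.5, 49.4 and 49.2 CPM with DMSO, with no overlap (0.83 ± 0.25, adjusted p = 0.25 by edgeR). On the TMM scale MT-ND6 was thus higher in every T4 library than in any DMSO library at each of the 3 times, with changes of 0.93, 0.61 and 0.83. At 6 h this did not hold without that scaling. Relative to library totals alone it was at 130.3, 227 and 179 CPM with T4 and 152, 124 and 128 CPM with DMSO at 6 h, and its share of the member counts was 1.22, 1.9996 and 2.05% with T4 and 1.35, 1.25 and 1.23% with DMSO, so that T4 library 1 lay among or below the DMSO libraries. At 24 h and 72 h the shares did not overlap, at 1.29 ± 0.0900% with T4 and 0.856 ± 0.0459% with DMSO at 24 h, and at 0.668 ± 0.0438% and 0.341 ± 0.0217% at 72 h. The differences between these changes in time were −0.31 ± 0.35 (24 h minus 6 h), 0.22 ± 0.35 (72 h minus 24 h) and −0.09 ± 0.36 (72 h minus 6 h). Whether the tags of MT-ND6 follow the amount of its mRNA, which has little or no tail, was not tested. Its level in T4 libraries, counted by tags, was 258 ± 102, 168 ± 6.23 and 80.4 ± 11.5 CPM at 6, 24 and 72 h. In DMSO libraries it was 134.5 ± 14.2, 110.2 ± 16.6 and 45.0 ± 7.37 CPM. Beside it, MTND6P4 was at 17.0 ± 0.817 CPM with T4 and 7.11 ± 3.37 CPM with DMSO at 72 h (1.27 ± 0.35, adjusted p = 0.21 by edgeR). Over all 10, 5, 4 and 1 did not overlap at 6, 24 and 72 h, beside 38.7, 37.9 and 18.3% of all genes.

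No member was called for a T4 effect that differed between times by edgeR, where 8.96% (24 h minus 6 h), 0.112% (72 h minus 24 h) and 9.45% (72 h minus 6 h) of all genes were called. The 1 unadjusted p under 0.05 among the 10 in these 3 tests was that of MT-ND5 for 72 h minus 24 h (−1.28 ± 0.42, adjusted p = 0.19 by edgeR). DESeq2 called 2 of the 10 lower for 24 h minus 6 h and 2 for 72 h minus 6 h, MT-CO3 and MT-CYB in each. The share of all genes that DESeq2 called is not given here, so these counts have no background beside them.

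The mRNAs were lower relative to the mitochondrial rRNAs after T4 at the later times. The ratio of summed member counts to summed MT-RNR1 and MT-RNR2 counts was 1.35, 1.54 and 1.300 with T4 and 2.21, 2.42 and 2.19 with DMSO at 24 h, and 2.66, 3.02 and 2.51 with T4 and 3.38, 3.72 and 3.20 with DMSO at 72 h. The groups did not overlap at either time. At 6 h they did, with 1.80 ± 0.221 for T4 and 1.79 ± 0.106 for DMSO. Of the rRNAs, MT-RNR1 had 6220 ± 733 CPM with T4 and 3339 ± 137 CPM with DMSO at 24 h (0.90 ± 0.26, adjusted p = 0.051 by edgeR), and MT-RNR2 had 3189 ± 455 and 2313 ± 210.2 CPM (0.46 ± 0.24). The ratio is a description, with no test.

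**Figure D5:**
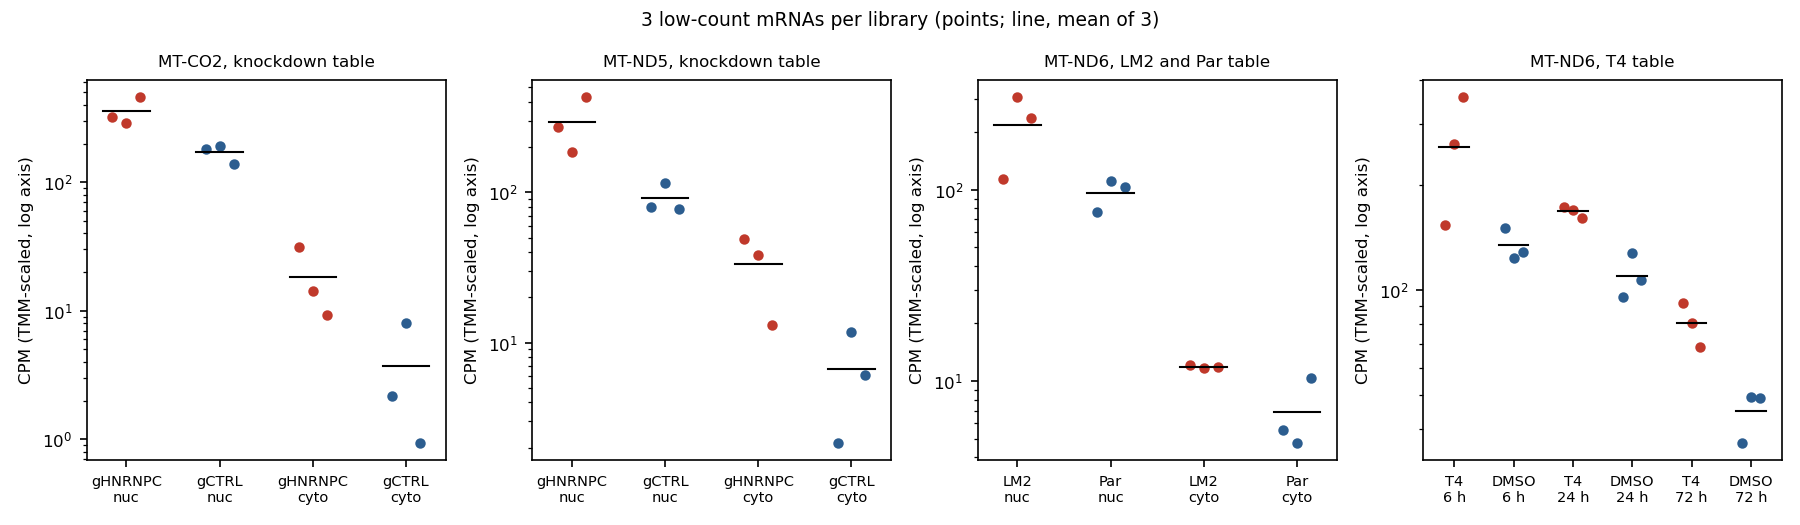
Levels (CPM after TMM scaling, log axis) of MT-CO2 and MT-ND5 in the knockdown table and of MT-ND6 in the other 2 tables; points are libraries and lines are means of 3. All gHNRNPC points of MT-CO2 and MT-ND5 lie above the gCTRL points of the same fraction, and on this scale every T4 point of MT-ND6 lies above the DMSO points of its time.

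Genes that act on mitochondrial DNA and RNA are read here against the share of all genes called in each comparison, given above. Of 14 genes for transcription and replication of mitochondrial DNA, 9 were tested in the first 2 tables and 6 in the T4 table. None was called in LM2 against Par cells, with 1 at an unadjusted p under 0.05 in each fraction by edgeR. After the knockdown 2 of 9 were called in the cytoplasm, beside 23.3% of all genes, and both were higher, TWNK, the replicative helicase (1.53 ± 0.32, adjusted p = 0.00098), and TFB2M, the initiation factor of the mitochondrial RNA polymerase (1.80 ± 0.59, adjusted p = 0.027), and none in the nucleus, with 1 at an unadjusted p under 0.05 by edgeR. At 6 h of T4 2 of 6 were called, beside 15.8% of all genes: TWNK (−2.21 ± 0.50, adjusted p = 0.0054) and MGME1, a nuclease of mitochondrial DNA (−2.54 ± 0.36, adjusted p = 0.00014), were lower, and at 24 h MTERF1, a transcription termination factor, was higher (1.64 ± 0.45, adjusted p = 0.039, all by edgeR). The T4 effect differed between 24 h and 6 h for 3 of 6 genes, beside 8.96% of all genes, TWNK (2.10 ± 0.62), MGME1 (2.10 ± 0.47) and MTERF1 (2.64 ± 0.66), and between 72 h and 6 h for 2 of 6, beside 9.45%.

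Of 22 genes for processing, polyadenylation, stability and decay of mitochondrial RNA, 14, 15 and 12 were tested in the 3 tables. In LM2 cytoplasm TRMT10C, a subunit of the RNase that cuts tRNA 5′ ends, was higher (1.45 ± 0.38, adjusted p = 0.030) and TBRG4, an RNA-binding protein of the organelle, lower (−0.62 ± 0.18, adjusted p = 0.040), and none of the 14 was called in LM2 nuclei, with 1 at an unadjusted p under 0.05. In gHNRNPC cytoplasm 4 of 15 were called, beside 23.3% of all genes, 2 higher and 2 lower, with HSD17B10, another subunit of that RNase, at −1.15 ± 0.24 (adjusted p = 0.00099) and PNPT1, an RNA-degrading enzyme, at 1.05 ± 0.35 (adjusted p = 0.030). In gHNRNPC nuclei PTCD1 (2.78 ± 0.79, adjusted p = 0.017) and TBRG4 (0.61 ± 0.18, adjusted p = 0.019) were higher. With T4, FASTKD5, which acts on mRNAs whose ends lie at no tRNA, was higher at 6 h (1.14 ± 0.22, adjusted p = 0.0015), HSD17B10 was lower at 24 h (−0.89 ± 0.21, adjusted p = 0.018), and none of the 12 was called at 72 h (all by edgeR, with 1 at an unadjusted p under 0.05). Of the 7 tested nuclear copies of mitochondrial genes, edgeR called 1 higher in LM2 cytoplasm, 2 in gHNRNPC cytoplasm, 3 in gHNRNPC nuclei and 3 after T4 at 6 h, where 4.16, 11.6, 8.45 and 3.15% of all genes were called higher. It called none in LM2 nuclei (none at an unadjusted p under 0.05) and none after T4 at 24 h or 72 h (1 at an unadjusted p under 0.05 at each time).

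The 10 mRNAs followed each other closely across fractions and loosely in total RNA. Pearson's r of the log2 CPM of each with the mean of the other 9 was 0.932 to 0.996 over the 12 libraries of the LM2 and Par table and 0.923 to 0.998 over those of the knockdown table, lowest for MT-ND5 in both, where nuclear and cytoplasmic libraries form separate groups that set such values. Over the 18 total RNA libraries it ran from −0.083 for MT-CO3 to 0.795 for MT-ATP6. Outside the mitochondrial chromosome, the highest r with the mean of the members was that of LAMP1 (0.997), MTRNR2L12 (0.995), ANGPTL4 (0.992), MTRNR2L8 and ITGB4 (0.991 each) among 4988 genes of the first table. Over the knockdown libraries it was that of RDH11 and ATP6V0A1 (0.995 each), CANX and MTRNR2L8 (0.993 each) and TOR3A (0.992) among 5060 genes. In the T4 table USP1 (0.904), RAC1 (0.901), SUPT5H (0.892), UFC1 (0.887) and ATP6V0C (0.882) came first among 4423 genes. These values are descriptions of libraries that share scaling factors, and the genes compared had a mean of at least 20 CPM.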

How the data were processed

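Total, nuclear or cytoplasmic RNA was sequenced from its 3′ ends (QuantSeq REV, per the labels' protocols), and the authors deposited 3 tables of expected counts, estimated counts of reads for single transcripts or positions. The submitters' processing notes name Salmon 0.14.1 and hg38. Whether strand was used in counting is not given in the sources used here. Each table has 94924 entries, of which 66115 transcript entries matched GENCODE 29. The values were whole in 98.27 to 98.78% of entries, were rounded and were summed per gene, with 0.934 to 4.234% of counts left out as unmatched. Depth was 0.798 to 2.305 M counts, which limits the low members. No 2 libraries of a group held identical values. Genes passing the edgeR expression filter were tested with edgeR 4.0.16 (R 4.3.3): TMM scaling and a quasi-likelihood fit with robust estimation of group means over all libraries of a table, in 16 comparisons, 5 of them differences between effects, with Benjamini-Hochberg adjustment over all genes of a comparison and a threshold of 0.05. A change is a log2 value ± its standard error. The procedure was also run on counts drawn independently from its own fitted means and spread. That simulation holds no deviations shared across the genes of a library, and its outcome is not given here. DESeq2 1.42.0, other scalings, no filter, other sets of libraries and a replicate block were alternatives. CPM, shares of gene counts and shares of the member counts are descriptions, with no p over the list. All 10 members, the targeted gene and the rRNAs are named with values, up to 4 genes of each other list by the smallest adjusted p, and 5 genes by the highest correlation. The members and lists were chosen with earlier results of these data known. Replicate numbers were taken to pair libraries where every same-numbered pair correlated above 0.1. That held for LM2 and Par nuclei (0.277 to 0.885) and for T4 and DMSO at 72 h (0.232 to 0.836). In neither case did library number 3 correlate best with its own number, so the pairing is uncertain.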

Additional observations from a re-analysis of the deposited data

How the results depend on the processing

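All 580 alternative values of the 10 mRNAs in the 4 comparisons of nucleus with cytoplasm stayed called and higher in the nucleus. A tally of 1657 alternative values covered the 11 comparisons between 2 groups. Of the differences between effects it held only MT-CO3 and MT-ATP6 for LM2, MT-CO1 for the knockdown and MT-ND5 for 72 h minus 24 h. In it 1548 values kept direction and side of the threshold, which includes the 580 above and values that stayed uncalled. The 44 that fell below it all belong to the few calls of the other comparisons, so the tally understates how often those calls ended. A further 26 passed the threshold. Another 39 changed sign, none of these past the threshold. The number of members called moved as follows, and the cause was not tested. The shares of all genes called by these alternatives are not given here, so the counts have no background beside them. In LM2 against Par cytoplasm (1 called) it was 2 with median-of-ratios factors, no filter or DESeq2, 0 with library totals, and 3 with the libraries of that comparison only or without the nuclear libraries numbered 2; leaving out each library gave 0 to 2. In LM2 against Par nuclei (0) it was 1 with no filter, and 0 to 1 leaving out a library. In gHNRNPC against gCTRL nuclei (2) it was 1 with median-of-ratios factors, library totals, scaling without mitochondrial RNAs or the replicate block, and 4 with no filter or that comparison only, and 0 to 1 leaving out a library. In the cytoplasm (6) it was 3 with that comparison only and 1 to 8 leaving out a library. For T4 at 6 h (1) it was 0 with library totals or that comparison only, 4 with DESeq2, and 0 to 1 leaving out a library; at 24 h (0) it was 3 with that comparison only. DESeq2 gave 2 for each T4 difference involving 6 h (0 by edgeR), and leaving out a library gave 0 to 1 for 24 h minus 6 h. The replicate block changed no call where numbers pair, and in knockdown nuclei, where they do not (r −0.430 to −0.092), it gave the 1 named above. Signs turned for uncalled values: with library totals, LM2 nuclei MT-CO1 0.01, MT-ATP6 −0.01 and MT-ND2 −0.01, gHNRNPC nuclei MT-ND6 −0.03, T4 at 6 h MT-CO1 −0.08, MT-CO2 −0.32, MT-CO3 −0.09, MT-CYB −0.23, MT-ND1 −0.16, MT-ND2 −0.35 and MT-ND4 −0.02, at 24 h MT-ND2 −0.09, and at 72 h MT-ATP6 0.03 and MT-ND4 0.05; without the nuclear libraries numbered 2, MT-CO1 0.17, MT-ATP6 −0.05 and MT-ND2 −0.13; with that comparison only, T4 MT-ND2 −0.04 at 6 h and −0.01 at 24 h. Leaving out a library, values ranged from −0.02 to 0.56 (MT-CO1), −0.59 to 0.03 (MT-CO2) and −0.51 to 0.03 (MT-ND5) in LM2 cytoplasm, −0.26 to 0.18 (MT-CO1), −0.23 to 0.15 (MT-ND1), −0.08 to 0.16 (MT-ATP6) and −0.13 to 0.30 (MT-ND2) in LM2 nuclei, −0.19 to 0.25 (MT-ND6) in gHNRNPC nuclei, −0.01 to 0.69 (MT-CO1) and −0.03 to 0.19 (MT-ND2) for T4 at 6 h, and −0.16 to 0.09 (MT-ND1) at 24 h. Depth limits MT-CO1, MT-CO2, MT-ND5 and MT-ND6, which had as few as 2 to 4 counts in cytoplasmic libraries.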
